A study of Mus musculus with 13 samples.

Results

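Ptprg, Ppm1l, Gulp1, Ikbke, Ncam1, Clcn3, Zzef1, Slc44a3, Vopp1 and Lpp are 10 genes whose RNA was lower in mouse mIMCD-3 cells given a gapmer that targets Hoxb3os, a long noncoding RNA, than in cells given a control gapmer. They were chosen by that fall from the 2016 genes of the authors' deposited cell table, with earlier results of these data known, so their fall in the cells is a description and was not tested. The mIMCD-3 line derives from the inner medullary collecting duct of the mouse kidney. Cells were transfected by lipofection with 10 nM of the Hoxb3os gapmer (3 libraries) or of a negative control gapmer (2 libraries), and RNA was taken after 48 hours.

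The same series holds whole kidneys of C57BL/6 mice from a pair of polycystic kidney models. Pkd1 knockouts carried KSP/Cre, driven by the promoter of kidney-specific cadherin, and the floxed alleles Pkd1f/f, and their controls carried Pkd1f/f without Cre (2 libraries each, postnatal day 10). Pkd2 knockouts carried Pkhd1/Cre, active in collecting ducts, and Pkd2f/f, and their controls carried Pkd2f/f without Cre (2 libraries each, postnatal day 20). Both Cre lines act in tubule epithelium, so other cells of the kidney keep the gene. The titles of the Pkd2 knockouts also carry "(WT)", against their genotype and description, and they were grouped as knockouts. All 10 genes had a row in the kidney table, and all 10 passed the filter on low values there. The labels do not say whether libraries came from separate animals or cultures, and the spread behind each p-value is that of the samples at hand, possibly technical.

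A gapmer is an antisense oligonucleotide with a DNA centre and modified ends. RNase H1 cuts the RNA strand where the DNA centre is paired, in the nucleus as well as in the cytoplasm, so unspliced transcripts can be cut within introns. RNAs other than the intended one can be cut where they pair well enough, and such off-targets are a known property of this class of molecule. The sequences below let the pairing be read directly. The gapmer is 16 bases long, and its full complement occurred in the annotated transcripts (GENCODE M21, build GRCm38) of a single gene, Hoxb3os, in exon 2 of the 4 exons of Hoxb3os-202, at chr11:96348296-96348311 on the minus strand. Each line after the gapmer gives, 5′ to 3′, the 16-base window of a gene's annotated transcripts with the fewest mismatches to that complement, and capitals mark the bases that pair with the gapmer. Ptprg is shown for the strongest fall, Clcn3 and Zzef1 for the fewest mismatches among the 10 genes, Ppm1l and Lpp for the longest unbroken pairing, and Arhgap24, Scrib, Vrk3 and Kdm3a, which are not among the 10, for the longer runs of the cell table.
gapmer: attactgcttcttcca
Hoxb3os: TGGAAGAAGCAGTAAT
Ptprg: aGGAAGAgGCctTAAc
Ppm1l: caGtAGAAGCAGTAtT
Clcn3: TGGAgGcAGCAtTAAT
Zzef1: TGGAgGAAcCAGgAAT
Lpp: gGGAAGAAGCAGagAc
Arhgap24: aGGAAGAAGCAGTAAg
Scrib: gGGAAGAAGCAGTAAc
Vrk3: TGGAAGAAGCAGTtcT
Kdm3a: TacAAGAAGCAGTAAT

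No window of the 10 genes' annotated transcripts had 2 or fewer mismatches, the case for 0.749% (15 genes) of the 2004 cell-table genes matched to the annotation. The best windows of Clcn3, which encodes a chloride-proton exchanger of endosomes, and of Zzef1, a large protein with zinc-finger and EF-hand domains, had 3 mismatches. The Clcn3 window lay in the coding sequence, in exon 2 of 12 of Clcn3-202 (chr8:60941377-60941392, minus strand). That of Zzef1 lay in the coding sequence, in exon 49 of 55 of Zzef1-201 (chr11:72915290-72915305, plus strand). In all, 2 of 10 genes had a window with at most 3 mismatches, against 6.24% of the cell-table genes and 7.60% of those with transcripts in the same length range. Ppm1l, Slc44a3 and Lpp had 4 mismatches at best, and Ptprg, Gulp1, Ikbke, Ncam1 and Vopp1 had 5, the median of the whole cell table. Ptprg, with the strongest fall, thus had no better a window than the median gene of the table; its window lay in coding exon 28 of 30 of Ptprg-201 (chr14:12226409-12226424, plus strand).

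Unbroken pairing ran over 7 to 11 bases in the 10 genes. The longest run of paired bases in any annotated transcript was 7 in Ptprg, 8 in Ncam1, Clcn3, Slc44a3 and Vopp1, and 9 in Gulp1, Ikbke and Zzef1. It reached 10 in Ppm1l, in the 3′ UTR within exon 4 of 4 of Ppm1l-201 (chr3:69556979-69556994, plus strand), and 11 in Lpp, in a noncoding exon of Lpp-204 (chr16:24762795-24762810, plus strand). A run of 9 was longer than that of 68.5% of the cell-table genes, and the runs of Ppm1l and Lpp longer than those of 89.4% and 95.7%. The median over the 10 genes was 8.5 bases, against 8 over the cell table, and none reached 12. For comparison, the gapmer's own letters, which have the same G+C content as its complement but other bases, were searched in the transcripts; such a match does not pair with the gapmer. In that orientation 1 of 10 genes, Ptprg, had a window with at most 2 mismatches, against 6 genes (0.299%) of the cell table.

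Elsewhere in the cell table, genes with longer runs were nearly all lower with the Hoxb3os gapmer. All 11 genes with a run of 13 or 14 paired bases were lower, with a median log2 change of -0.42, and so were 20 of the 22 genes with a run of 12 (median -0.21). The share lower was 79.2% at a run of 11, 59.4% at 9 to 10 and 52.3% at 8 or fewer. In the opposite orientation, where nothing pairs, the shares also went up with the run: 53.6% at 8 or fewer, 61.7% at 9 to 10 and 72.0% at 11. At a run of 12 there, 4 of 6 genes were lower, and so was the only gene with a run of 13. The part of transcript length in these shares was not tested. These genes were picked after their values were seen, and no test was made.

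Of these 11 genes, log2 changes ran from -0.90 to -0.17. The lowest belonged to Gm21284, a noncoding gene with a run of 13 and low values (mean 66.1 scaled reads under the control gapmer), and lay below those of Zzef1, Vopp1 and Lpp. Arhgap24, a GTPase-activating protein with 14 paired bases in a row (chr5:102875817-102875832, plus strand), had a log2 change of -0.36 ± 0.06 (SE), at 1924, 1893 and 1825 scaled reads under the Hoxb3os gapmer, against 2242 and 2592 under the control gapmer. Scrib, a polarity scaffold with a run of 14 as well, in a noncoding exon of Scrib-204 (chr15:76048806-76048821, minus strand), had a change of -0.19 ± 0.05. The values are per gene, and the share of these noncoding transcripts in them was not examined. Vrk3, a kinase-family protein with a run of 13 in coding sequence (chr7:44764133-44764148, plus strand), had -0.44 ± 0.06. Kdm3a, a histone demethylase with a run of 13 in coding sequence (chr6:71611518-71611533, minus strand), had -0.43 ± 0.05. Of the 50 genes with the largest falls in the cell table, 1 had a run of at least 12 bases, Gm21284. Over the whole table, 1.10% of genes had a run of 12 and 0.549% a run of 13 or 14. Annotated genes with a single mismatch to the gapmer's complement were Carm1, Gm47910 and Prdm11, none of them in the cell table.

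**Figure D1:**
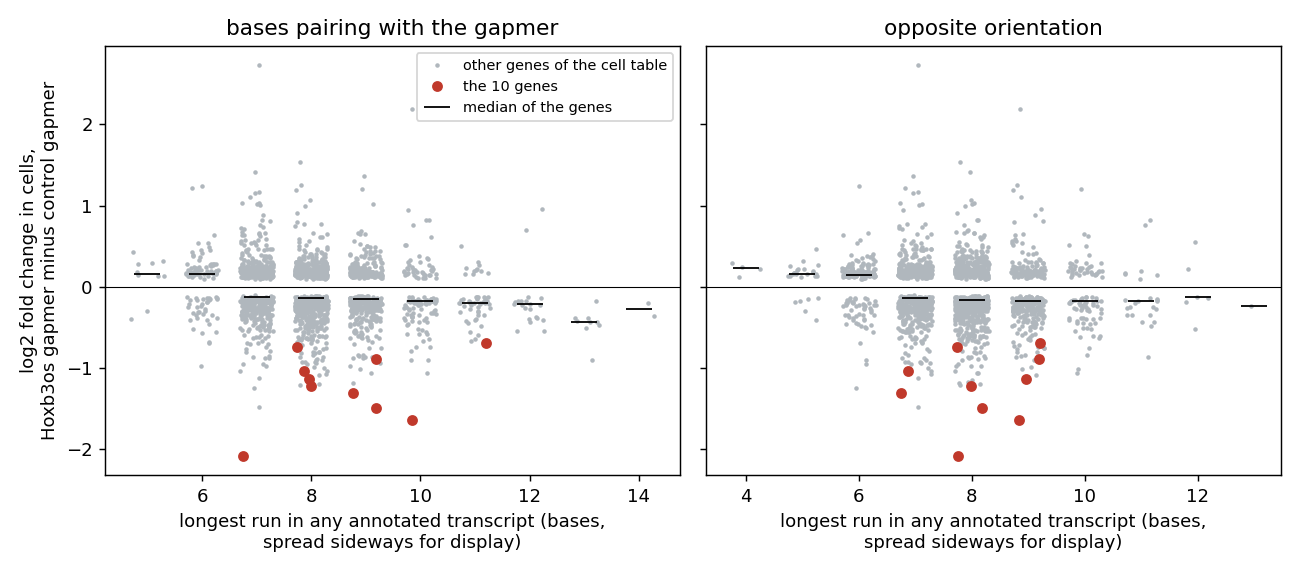
Log2 change in the cells (Hoxb3os gapmer minus control gapmer, vertical axis) against the longest run of bases in any annotated transcript that pairs with the gapmer (left) or matches it in the opposite orientation (right). Each grey point is a gene of the cell table, red points are the 10 genes and black bars are medians at each run length; the 10 genes sit at runs of 7 to 11, and all 11 genes with runs of 13 or 14 in the left panel lie below 0.

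This search covered annotated transcripts, noncoding ones included, since no genome sequence was used here. Intron sequence outside these transcripts was not searched. Introns made up a median of 94.4% of the span of the 10 genes, from 64.3% in Ikbke to 98.5% in Gulp1, so most of their unspliced RNA was not examined for pairing. Hoxb3os itself was not analysed in the cells because the cell table used here has no row for it, and the extent of its knockdown was not checked. The cell table is a selection of genes, with a largest deposited adjusted p of 0.04998, so genes that did not respond are not in these shares.

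Most of the 10 genes were long. Their median gene span was 187 kb, against 26.9 kb over the cell table, 41.7 kb over its lower genes, 15.7 kb over its higher genes and 36.8 kb over the 10 genes with the largest rises. The falls as such were not as long: the median span was 41.7 kb over the 10 genes with the largest falls by the change computed here, 69.2 kb over the 24 genes at least 2-fold lower and 45.3 kb over the 50 largest falls. The longest 25% of the table held 9 of them, with spans of 72.9 kb (Slc44a3, Clcn3), 97.4 kb (Vopp1), 131 kb (Zzef1), 244 kb (Ppm1l), 245 kb (Gulp1), 297 kb (Ncam1), 599 kb (Lpp) and 689 kb (Ptprg). Ikbke was the exception, with 25.3 kb. Across the cell table, the share of genes lower with the Hoxb3os gapmer was 30.5% in the 25% of genes with the shortest spans, 51.1% and 61.1% in the next 25% each and 79.8% in the 25% with the longest. Of the 157 genes of at least 200 kb, 142 were lower, 5 of the 10 genes among them. The Spearman correlation of span with the log2 change was -0.35 across 2004 genes, which share the same 5 libraries. Most of the 10 genes were also low for their length, with control values per kb of exon above those of 8.38% (Ncam1) to 47.3% (Lpp) of the table. The part of length or level in the falls was not tested.

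**Figure D2:**
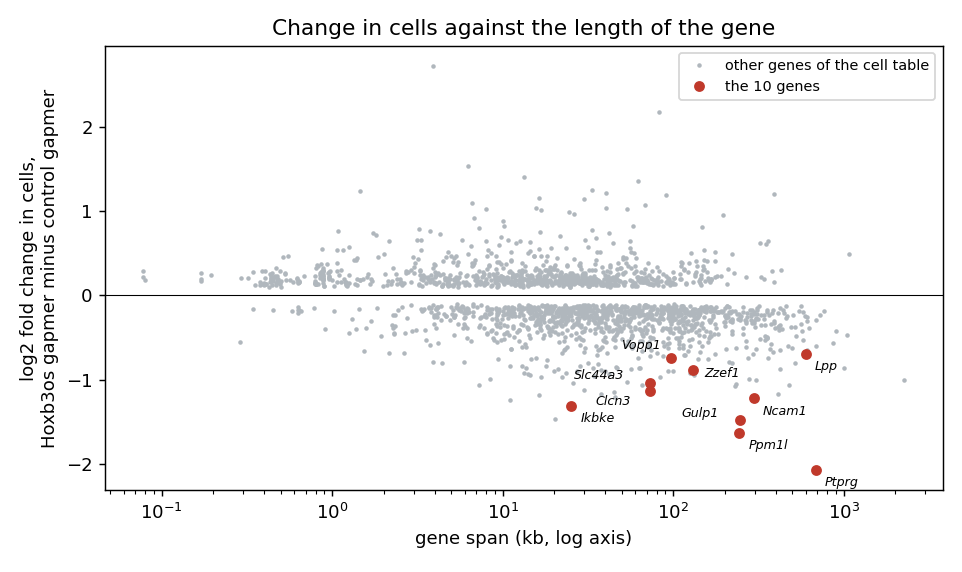
Log2 change in the cells (Hoxb3os gapmer minus control gapmer) against gene span in kb on a log axis. Grey points are the genes of the cell table and red points the 10 genes, 9 of which have spans of 72.9 kb or more while Ikbke lies at 25.3 kb; genes of at least 200 kb lie mostly below 0, and genes with changes near 0 are missing because the table is a selection.

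The cell values are deposited as scaled reads per gene, and the percentages below are the gapmer mean over the control mean ± SE. Every Hoxb3os gapmer library lay below both control gapmer libraries for all 10 genes. In this selected table the same held for 55.5% of all genes, 55.6% of genes were listed as lower, and 1.19% (24 genes, 7 of the 10 among them) were at least 2-fold lower. Since the fall chose the genes, nothing is read from these counts. The range of the log2 changes was -2.08 to -0.69, with a median of -1.18, against -0.14 over the table.

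Of the proteins at the cell surface, Ptprg is a receptor-type tyrosine phosphatase and Ncam1 the neural cell adhesion molecule, which in the kidney is known from the developing nephron. Ptprg was at 243, 243 and 256 with the Hoxb3os gapmer, against 1031 and 1062 with the control gapmer, or 23.6% ± 0.553 of the control. Ncam1 was at 236, 249 and 226 with the Hoxb3os gapmer, against 536 and 573 with the control gapmer, or 42.7% ± 1.88. The gap between the lowest control and the highest gapmer library was widest in Ptprg, at 4.02-fold. Of 21 receptor tyrosine phosphatases listed, 5 were in the cell table, 4 lower, Ptprg itself among them, and 1 higher. Ptprd stood at 49.7% of the control, Ptprk at 71.5% and Ptprm at 81.5%, while Ptpre stood at 127%. Of 17 adhesion molecules with immunoglobulin domains, 4 were in the table, 3 lower, Ncam1 itself among them, and 1 higher. Alcam stood at 63.9%, L1cam at 92.1% and Cadm1 at 117% of the control. Over the whole table, 55.6% of genes were listed as lower.

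Ppm1l and Ikbke are signalling enzymes of opposite kinds. Ppm1l is a metal-dependent serine/threonine phosphatase of the endoplasmic reticulum membrane, and it was at 530.1, 519 and 514 with the Hoxb3os gapmer, against 1561 and 1677 with the control gapmer (32.2% ± 1.19). Ikbke is the kinase IKK-epsilon, a partner of TBK1 in innate immune signalling, and it was at 626, 600.0 and 576 with the Hoxb3os gapmer, against 1510.1 and 1471 with the control gapmer (40.3% ± 1.09). Neither group overlapped with its control, and the 3 gapmer libraries lay close together for both genes. Of 18 phosphatases of the Ppm family, 3 were in the table, with Ppm1e at 76.8% and Ppm1g at 118% of the control. Of 12 IKK-related kinases and partners, the only other was Optn, an adaptor that binds TBK1, at 87.7%. None of 16 genes of interferon response and RNA sensing was in the table.

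Clcn3 and Slc44a3 encode membrane transporters. Clcn3 was at 3095, 2950.2 and 2983 with the Hoxb3os gapmer, against 6678 and 6555 with the control gapmer (45.5% ± 0.786). Slc44a3, of the choline transporter-like family, was at 557, 554 and 522 with the Hoxb3os gapmer, against 1095 and 1139 with the control gapmer (48.7% ± 1.40). Of 11 genes of the CLC family and partners, Clcn5 and Clcn6 were also in the table, both higher, at 114% of the control each. Slc44a3 was the only gene of 10 for choline transport and use in the table.

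Gulp1 and Lpp are adaptor proteins, Gulp1 in the engulfment of dying cells and Lpp, of the zyxin family, at focal adhesions. Gulp1 had the lowest values of the 10 genes, 102, 105 and 105 with the Hoxb3os gapmer, against 266 and 323 with the control gapmer (35.3% ± 3.44), and its controls were the most spread. Lpp had the highest, 6157, 5692 and 6202 with the Hoxb3os gapmer, against 9464 and 9985 with the control gapmer (61.9% ± 2.36). Of 12 zyxin-family genes and partners, Zyx, Ajuba and Actn1 were also in the table, at 112%, 125% and 114% of the control. Of 11 engulfment genes, the other was Dock1, at 84.8%.

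Vopp1, a vesicular protein reported to be overexpressed in cancers, was at 1646, 1490.7 and 1575 with the Hoxb3os gapmer, against 2591 and 2652 with the control gapmer (59.9% ± 1.84). Zzef1 was at 2539, 2556 and 2489.7 with the Hoxb3os gapmer, against 4563 and 4807 with the control gapmer (54.0% ± 1.46). The choice was not a strict cut on size. By the authors' deposited log2 change the 10 genes hold ranks 1 to 17 among the falls, and by the change computed here Lpp ranks 84th. Inside the choice, Vopp1 and Lpp had log2 changes of -0.74 and -0.69. Outside it lay Ttc28 (-1.17), Fer (-0.99) and Tgfbi (-1.12), which hold ranks 7, 10 and 11 in the authors' deposited table.

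**Figure D3:**
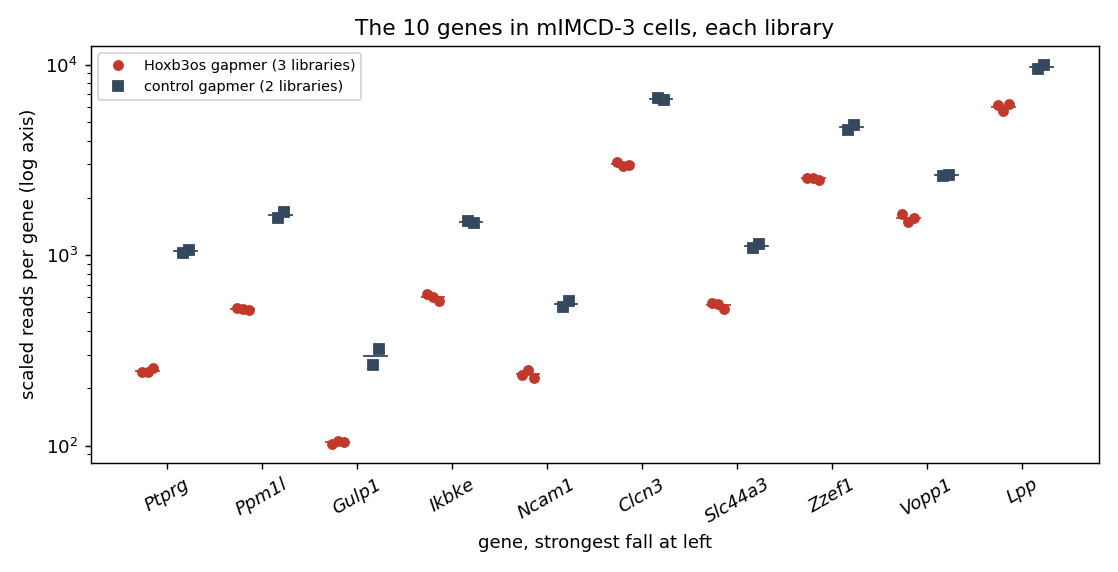
Scaled reads per gene in each mIMCD-3 library, on a log axis, for the 10 genes ordered by their fall. Red circles are the 3 Hoxb3os gapmer libraries, dark squares the 2 control gapmer libraries and short lines the group means; the groups do not overlap for any of the 10 genes, from Ptprg at 23.6% of the control to Lpp at 61.9%.

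The kidney table was not used to choose the 10 genes. In the kidneys none of them was called lower in either knockout, and 5 rose in Pkd2 knockouts, the opposite direction to that in the cells. Changes are log2 fold changes of (value + 1) ± SE, knockout minus control, a scale that shrinks the changes of low genes, and adjusted p-values are Benjamini-Hochberg values from limma over 14637 genes. In Pkd1 knockouts, 2 of the 10 genes were called higher and 0 lower, where 5.11% of all tested genes were called higher and 5.48% lower. In Pkd2 knockouts, 5 of 10 were called higher and 0 lower, where 9.54% of all tested genes were called higher and 8.13% lower. In both models 0 of 10 were lower at an unadjusted p below 0.05, and in Pkd2 0 were called lower by DESeq2 or edgeR on recovered reads. The median change of the 10 genes was 0.38 in Pkd1 and 0.70 in Pkd2 knockouts, against -0.00 and -0.01 over all tested genes.

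Vopp1 and Slc44a3 rose in both models. Vopp1 was at 14.4 and 15.3 in Pkd1 knockouts, against 8.24 and 8.88 in their controls (0.73 ± 0.17, limma adjusted p = 0.031). It was at 11.8 and 14.98 in Pkd2 knockouts, against 5.77 and 6.11 in their controls (1.05 ± 0.17, limma adjusted p = 0.0053). Both knockout groups lay wholly above their controls. Slc44a3 was at 7.95 and 10.1 in Pkd1 knockouts, against 4.26 and 4.94 in their controls (0.83 ± 0.20, limma adjusted p = 0.036). It was at 6.53 and 8.74 in Pkd2 knockouts, against 3.66 and 4.52 in their controls (0.75 ± 0.20, limma adjusted p = 0.036). The Slc44a3 and Vopp1 calls in Pkd1 ended when any 1 of its 4 libraries was left out (adjusted p from 0.075 to 0.20 for Slc44a3 and from 0.10 to 0.16 for Vopp1). In the authors' deposited table their adjusted p in Pkd1 was 0.091 and 0.21.

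Ncam1, Gulp1 and Ikbke rose in Pkd2 knockouts. Ncam1 was at 47.4 and 59.9 in Pkd2 knockouts, against 24.0 and 23.1 in their controls (1.15 ± 0.18, limma adjusted p = 0.0045). Gulp1 was at 28.5 and 34.4 in Pkd2 knockouts, against 14.7 and 14.5 in their controls (1.05 ± 0.17, limma adjusted p = 0.0048). Means were 2.28-fold (Ncam1) and 2.16-fold (Gulp1) those of the controls, with no overlap of groups. Ikbke was low throughout, at 3.95 and 4.86 in Pkd2 knockouts, against 1.66 and 2.12 in their controls (0.90 ± 0.23, limma adjusted p = 0.030). In Pkd1 knockouts these genes were not called: Ncam1 was at 154 and 155 in Pkd1 knockouts, against 133 and 112 in their controls (0.33 ± 0.18, limma adjusted p = 0.27). Gulp1 was at 33.4 and 31.5 in Pkd1 knockouts, against 21.02 and 25.1 in their controls (0.48 ± 0.17, limma adjusted p = 0.11). Ikbke was at 4.20 and 5.59 in Pkd1 knockouts, against 4.22 and 2.58 in their controls, and these groups overlapped (0.44 ± 0.23, limma adjusted p = 0.26).

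The authors' deposited table gives adjusted p-values of 0.016 for Ncam1, 0.030 for Gulp1, 0.022 for Ikbke and 0.022 for Vopp1 in Pkd2, and 0.12 for Slc44a3. The Ikbke and Slc44a3 calls in Pkd2 ended under several other settings, among them edgeR on recovered reads (edgeR adjusted p = 0.054 and 0.084). Without Pkd2 control replicate 2, Ikbke, Slc44a3, Ncam1 and Gulp1 were not called (limma adjusted p = 0.11, 0.12, 0.053 and 0.052), and without Pkd2 control replicate 1, Ikbke, Slc44a3 and Vopp1 were not (0.17, 0.20 and 0.052). Without Pkd2 knockout replicate 2, Ikbke and Slc44a3 were not called (0.15 and 0.19).

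Lpp, Ppm1l, Clcn3, Zzef1 and Ptprg were called in neither model. Lpp was at 312 and 247 in Pkd1 knockouts, against 191 and 223 in their controls (0.43 ± 0.23, limma adjusted p = 0.27). It was at 252 and 346 in Pkd2 knockouts, against 176 and 203 in their controls, with no overlap (0.64 ± 0.23, limma adjusted p = 0.090); Lpp was called without Pkd2 knockout replicate 1 (0.87, adjusted p = 0.027). Ppm1l was at 7.66 and 8.61 in Pkd1 knockouts, against 6.56 and 6.84 in their controls, and at 5.44 and 6.91 in Pkd2 knockouts, against 6.58 and 6.62 in their controls. Ptprg, the gene with the strongest fall in cells, was the only one of the 10 whose knockout libraries lay wholly below their controls. It was at 68.8 and 67.2 in Pkd1 knockouts, against 73.7 and 73.1 in their controls (-0.11 ± 0.15, limma adjusted p = 0.68). It was at 58.5 and 60.0 in Pkd2 knockouts, against 72.5 and 75.5 in their controls (-0.32 ± 0.15, limma adjusted p = 0.18).

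Clcn3 and Zzef1 stayed near their controls and their groups overlapped in both models. Clcn3 had changes of 0.08 ± 0.20 in Pkd1 and -0.14 ± 0.20 in Pkd2 knockouts, and Zzef1 of -0.00 ± 0.17 and -0.03 ± 0.17. By overlap alone, 6 of the 10 genes had both Pkd1 knockouts above both controls and 1 had both below, where 29.1% of all tested genes did so upwards and 29.2% downwards. In Pkd2 the counts were 6 and 1 as well, where the shares of all tested genes were 31.9% and 30.9%.

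**Figure D4:**
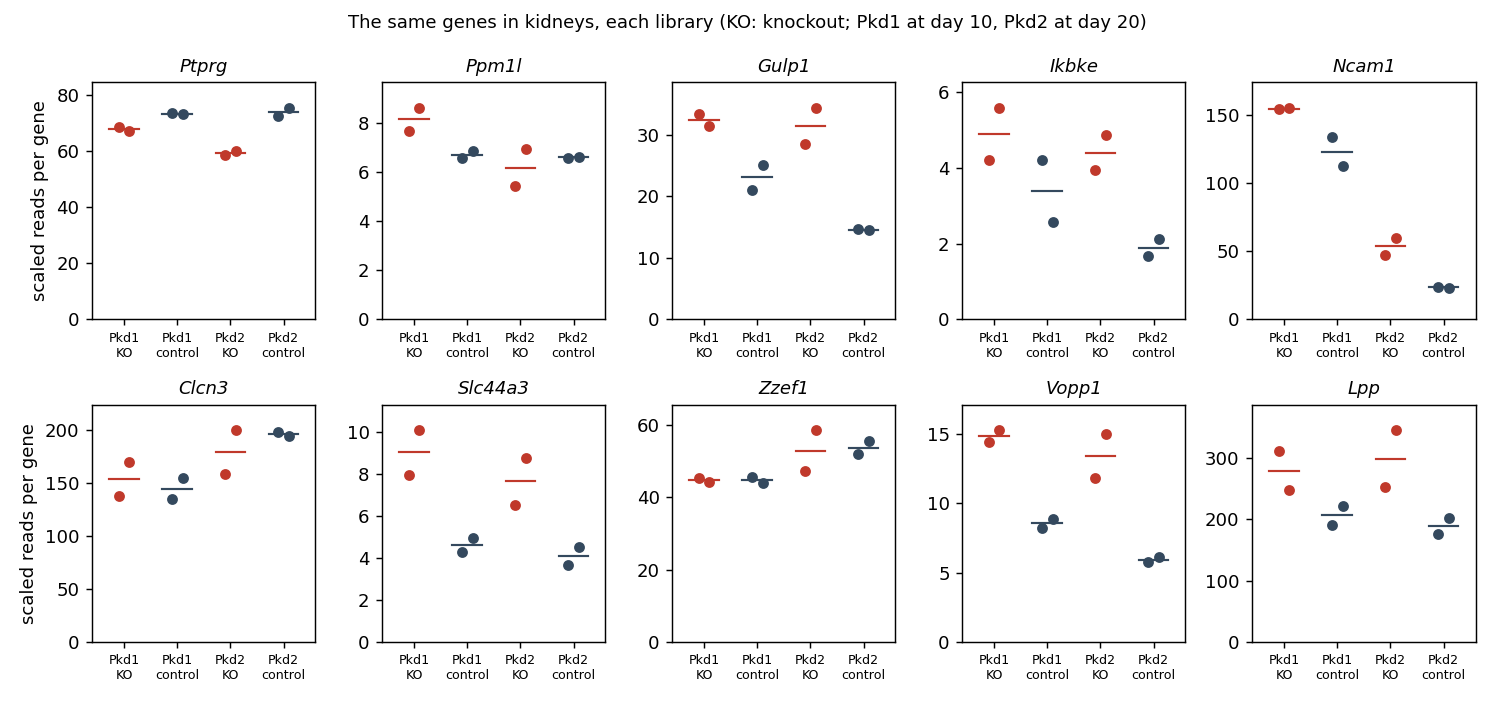
Scaled reads per gene in each kidney library, a panel for each of the 10 genes, with knockouts in red left of their controls in dark blue and short lines at the group means of 2 libraries. Vopp1 and Slc44a3 lie above their controls in both models, Ncam1 and Gulp1 are at 2.28 and 2.16 times their controls in Pkd2 knockouts, and Ptprg alone lies below its controls in both models.

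The effects of the 2 knockouts on these genes were not shown to differ. For the difference, Pkd1 minus Pkd2, 0 of 10 genes were called by limma, where 0.00683% (1 gene) of all tested genes was, and 2 of 10 had an unadjusted p below 0.05, as did 1207 of the 14637 genes. These were Ncam1 (-0.81 ± 0.25, limma adjusted p = 0.37) and Gulp1 (-0.57 ± 0.24, limma adjusted p = 0.56), both with the larger change in Pkd2. The models differ in gene, Cre line and age, which cannot be told apart.

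Ncam1 and Gulp1 also differed with age. In control kidneys, day 20 minus day 10, Ncam1 was at 24.0 and 23.1 at day 20, against 133 and 112 at day 10 (-2.33 ± 0.18, limma adjusted p = 0.00036). Gulp1 was at 14.7 and 14.5 at day 20, against 21.02 and 25.1 at day 10 (-0.62 ± 0.17, limma adjusted p = 0.045), a call that ended when any of these 4 libraries was left out (adjusted p from 0.10 to 0.22). So 2 of 10 genes were called lower and 0 higher, where 7.26% and 5.04% of all tested genes were. Ikbke and Vopp1 also lay lower at day 20 with no overlap (-0.58 ± 0.23 and -0.46 ± 0.17, limma adjusted p = 0.14 and 0.12), and Clcn3 and Zzef1 lay higher (0.44 ± 0.20 and 0.25 ± 0.17, limma adjusted p = 0.20 and 0.37). That makes 4 genes with groups apart downwards and 2 upwards, where 31.2% and 31.1% of all tested genes were. These libraries are also the controls of the knockout comparisons, and the ages carry different floxed genes.

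The 5 genes called higher in Pkd2 knockouts (Ncam1, Gulp1, Vopp1, Ikbke and Slc44a3) stood at 35.3% to 59.9% of the control in the cells. Hoxb3os itself was at 0.712 and 0.593 in Pkd1 knockouts, against 2.07 and 2.56 in their controls (-1.002 ± 0.29, limma adjusted p = 0.062). It was at 1.71 and 0.370 in Pkd2 knockouts, against 2.60 and 1.99 in their controls (-0.77 ± 0.29, limma adjusted p = 0.10). Hoxb3os thus lay below its controls in all 4 knockout libraries, as did only Ptprg of the 10 genes. Hoxb3os did not pass the threshold in limma, but its values were low, and the scale of log2(value + 1) shrinks the changes of low genes.

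**Figure D5:**
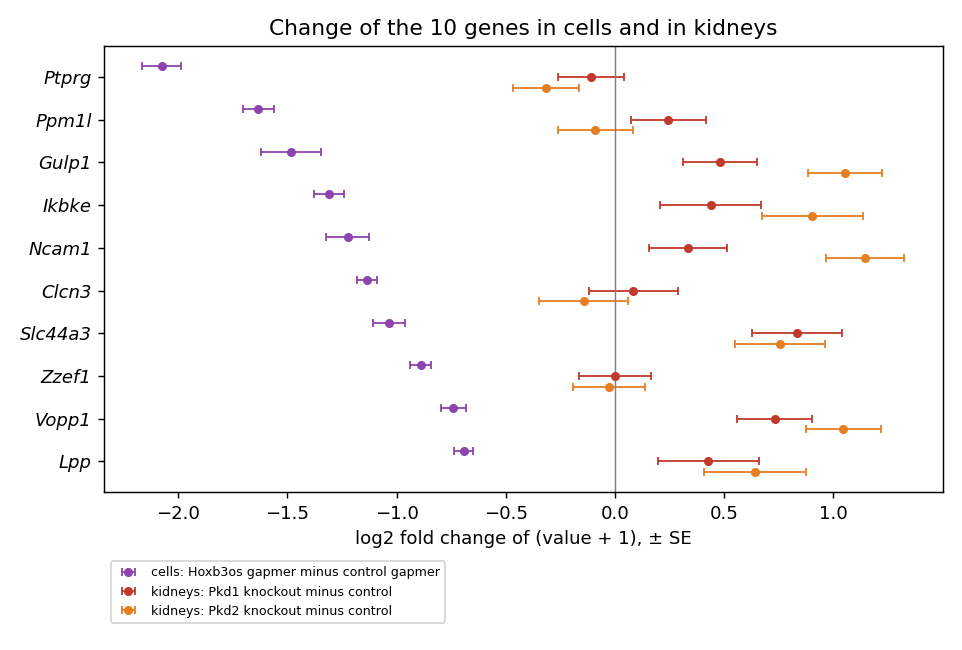
Log2 fold changes of (value + 1) ± SE for the 10 genes in the cells (Hoxb3os gapmer minus control gapmer, purple, from which the genes were chosen), in Pkd1 (red) and in Pkd2 kidneys (orange; knockout minus control). All purple points lie between -2.08 and -0.69, while the kidney points lie between -0.32 and 1.15.

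Members of the families of the 10 genes were called in both directions in the kidneys. The family lists include those of the 10 genes that belong to them. Of 12 zyxin-family genes and partners tested, 2 rose in Pkd1 and 4 in Pkd2 knockouts and 0 fell in either, with Ajuba (0.82 and 1.02) and Actn1, which crosslinks actin (1.04 and 1.48), higher in both. Of 9 CLC-family genes and partners tested, 4 fell and 0 rose in each model, among them Bsnd, the subunit of the kidney's chloride channels (-1.51 in Pkd1 and -1.52 in Pkd2). Clcn3 was not among them. Of 8 adhesion molecules tested, 2 rose and 1 fell in Pkd1, with Mcam at 0.87. In Pkd2, 3 rose, Ncam1 itself among them, and 0 fell, with Mcam at 0.87 again. Of 16 receptor tyrosine phosphatases tested, 1 rose and 3 fell in Pkd1, and 3 rose and 2 fell in Pkd2. Ptprd, which was also lower in the cells, fell in both (-1.15 and -1.28), and Ptprc, a marker of white blood cells, rose in Pkd2 (1.85).

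Of the other lists, 1 of 8 choline genes, Slc44a3 itself, rose in Pkd1, and 2, Slc44a3 among them, rose in Pkd2. Of 11 engulfment genes, 0 were called in Pkd1, and 2 rose, Gulp1 itself among them, and 2 fell in Pkd2. Of 18 Ppm-family phosphatases, 0 were called in Pkd1, and 1 rose and 1 fell in Pkd2. Of 12 IKK-related genes, 1 fell in Pkd1 and 1, Ikbke, rose in Pkd2. Of 14 interferon and RNA-sensing genes tested, 1 fell in each model, and none of 12 RNase H and RNA decay genes was called. In the cells 1 of those 12, Dis3, was in the table, at 112% of the control.

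Cell-type markers and the mitochondrial share moved with the knockouts. In bulk kidney, more cells of a type and more RNA per cell cannot be told apart. All 4 macrophage markers rose in both models, with sums of 55.6 to 57.7 in Pkd1 knockouts, against 22.2 to 26.8 in their controls, and of 92.8 to 105 in Pkd2 knockouts, against 26.4 to 28.9 in their controls. Of 5 fibroblast markers, 2 rose in each model, and of 16 collecting duct markers, 7 rose in Pkd1, and 6 rose and 1 fell in Pkd2. All 5 proximal tubule and all 3 thick ascending limb markers fell in both, 3 of 4 podocyte markers fell in Pkd1 and 2 in Pkd2, and 2 of 4 endothelial markers fell in Pkd1 and 0 in Pkd2. The share of mitochondrial transcripts was lower in knockouts of both models, with no overlap within a model. It was 22.05% and 22.5% of the values in Pkd1 knockouts, against 27.4% and 38.7% in their controls. In Pkd2 knockouts it was 34.7% and 30.1%, against 41.4% and 41.3% in their controls. Summed Y-linked genes, which mark males, were unbalanced between groups. They were at 149 and 183 in Pkd1 knockouts, against 155 and 10.4 in their controls, and at 169 and 0.0462 in Pkd2 knockouts, against 0.104 and 0.0221 in their controls. Xist, which marks females, was at 25.3 and 27.7 in Pkd1 knockouts too. With a covariate for Y-linked genes, chosen after seeing the data, 3 of the 10 genes were called higher in Pkd1 and 5 in Pkd2 knockouts, where Lpp was called and Ikbke was not. The part of the cell markers and of the mitochondrial share in the rise of the 10 genes was not tested. In the cell table, 1 of 16 collecting duct markers was present (Cdh1, at 74.96% of the control), so the identity of the cells could not be checked from it.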

How the data were processed

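Per the labels' protocols, Trizol was used for RNA and a TruSeq kit for libraries. Build mm10 and STAR 2.4.2a are named by the submitters' processing notes for both tables, with RSEM 1.2.22 and edgeR among the kidney tools and DESeq2 1.12.3 among the cell tools. The sources used here do not give the strand setting or the depth of the cell libraries, and reads of overlapping genes on opposite strands cannot be told apart. The authors' deposited values are a signal per gene, reads scaled per library. In the cell table they summed to 9.91 to 10.1 M over its 2016 genes, which is not the depth. The deposited p-values are adjusted, per the file headers. Set against the values, log2 changes in the authors' deposited tables are control minus knockout (kidneys) and gapmer minus control (cells). Those of the cells are smaller for the 10 genes than the changes computed here and may be moderated, which the headers do not state. Whole reads could be recovered for the 4 Pkd2-model libraries, where 94.2% to 95.0% of values were whole within 0.02 of a read, with 30.7 to 57.6 M reads each.

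Kidney genes reaching a value of 1 in 2 or more libraries (14637 of 28183) were tested with limma 3.58.1 (trend, R 4.3.3) on log2(value + 1) in 1 fit of 4 groups and 8 libraries (residual degrees of freedom: 4), and a Benjamini-Hochberg adjusted p below 0.05 was a call. The kidney fit was tested on simulated data. Log2 changes of the cells and their SEs came from a separate limma fit on the 2016 genes of the cell table (residual degrees of freedom: 3). Those genes are a selection by adjusted p, so the SEs of the cell log2 changes may be too small. The 16-base gapmer from the labels was compared, without gaps and with G:U pairs as mismatches, with every window of 141748 annotated transcripts (GENCODE M21, GRCm38), which matched 2004 of the 2016 cell-table genes. A search of whole gene spans was planned, and transcripts were used instead because no genome sequence was used here. Alternatives were a pseudocount of 0.1, no filter, quantile scaling, a fit on 4 libraries, a replicate block, leaving out each library, and DESeq2 1.42.0 and edgeR 4.0.16 on recovered Pkd2 reads; a covariate for Y-linked genes was chosen after seeing the data. The 10 genes and all gene lists were chosen with earlier results of these data known. Genes outside the 10 were named from the lists (called members, or members present in the cell table), as the next strongest falls, or, for the windows with long runs, after their values were seen.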

Additional observations from a re-analysis of the deposited data

How the results depend on the processing

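In Pkd1 knockouts, 0 of the 10 genes were called (2 as reported) with no filter, with a replicate block and without any 1 library, and 3 with a covariate for Y-linked genes. Genes called over the whole table fell to 790 with no filter, against 1550 as reported, and ranged from 325 to 788 without 1 library. In Pkd2 knockouts, 5 genes were called by DESeq2 and 3 by edgeR on recovered reads, 3 with no filter or a replicate block and 1 to 6 without 1 library. All genes called there came to 2587 as reported (1397 higher), 2450 by DESeq2 (1330 higher), 1235 by edgeR (827 higher), 1379 in the fit of 4 libraries and 621 to 4253 without 1 library. For the difference between models, 1 gene of the table was called as reported, 5 with a pseudocount of 0.1, 8 with quantile scaling, 0 with no filter or the covariate and 0 to 26 without 1 library. Between ages, 1 of the 10 genes was called with no filter, quantile scaling or any 1 library left out, and 403 to 780 genes of the table without 1 library, against 1801 as reported. The cause was not tested. Signs turned for changes near 0 that were never called. In Pkd1 these were Clcn3 (-0.068 to 0.24 without 1 library) and Zzef1 (-0.030 to 0.026 without 1 library, 0.060 with the covariate). In Pkd2 they were Ppm1l (-0.24 to 0.059 without 1 library), Clcn3 (-0.31 to 0.024 without 1 library, 0.096 with quantile scaling) and Zzef1 (-0.18 to 0.12 without 1 library, 0.040 with quantile scaling, 0.035 with the covariate). In the cells, quantile scaling moved the median change of the 10 genes to -1.06, against -1.18 as reported. Of the 10 genes, 2 had a window with at most 3 mismatches and 1 with at most 2 in the opposite orientation, against 0 as reported.

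Deviations of same-numbered libraries from their group means had correlations over genes of -0.38 in Pkd1, -0.05 in Pkd2 and -0.11 in the cells. With groups of 2 or 3 libraries, these values cannot settle whether the numbers pair the libraries. The replicate block gave 1044 called genes in Pkd1 and 1812 in Pkd2. DESeq2 and edgeR were not run for the other comparisons, where whole reads were not recovered for every library. A library left alone in its group was taken to vary as the rest do. Groups of 2 or 3 libraries limit every value here.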
